A study of Saccharomyces cerevisiae with 18 samples.

Results

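Messenger RNA of the budding yeast strain YJM975, a clinical isolate of Saccharomyces cerevisiae grown as a homozygous diploid, was compared between cultures fed ethanol and cultures fed glycerol. Per the labels, both groups were 5 mL cultures in S-CSM, a synthetic medium with amino acid and base supplements, with 2% ethanol or 2% glycerol as the carbon source, harvested while growing exponentially, at optical densities between 0.5 and 1.0. Each medium had 3 libraries from biological triplicates, and the series holds 18 libraries in all, from YJM975 and the strain RM11, also a homozygous diploid, in ethanol, glycerol and glucose. The strain stands for 1 isolate, so the values describe YJM975 and not clinical strains at large. The pheromone genes MFA1 and MFA2, known to be repressed in a/alpha diploids, were well above 0 in all 6 libraries. Their levels go against the labelled a/alpha state. Other genes repressed in such diploids, among them STE4 and GPA1, stood lower, and the state was not settled. All ethanol and glycerol libraries carried the same sequencing run label. The genes described are the 6192 of 6612 transcripts in the table (93.6%) whose mean reached at least 1 TPM (transcripts per 1000000), the deposited relative unit, over the 6 YJM975 libraries. Of the other 420 transcripts, 153 were at 0 in all 6 libraries and 267 lay between 0 and the threshold. Just inside it were YHL005C, YAL063C-A and YLR112W at 1.01 TPM each, and just outside it COX1, YER006C-A and YAR019W-A at 0.999, 0.998 and 0.995 TPM. Of the 6192 genes, 60 had a mean under 1 TPM in glycerol and 21 in ethanol, so they passed through a single medium. TPM keeps no read depth, so the depth of each library is unknown. Levels are given with their SD over 3 libraries, and log2 changes, ethanol minus glycerol on the log2(TPM + 1) scale, with the SE of the fit.

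Ethanol and glycerol are both respired rather than fermented, but they enter metabolism at different points. Ethanol is oxidized through acetaldehyde and acetate to acetyl-CoA, which carries carbon units too short for sugar synthesis unless the glyoxylate cycle joins them and gluconeogenesis runs upward from oxaloacetate. Glycerol is phosphorylated and oxidized to dihydroxyacetone phosphate, which enters in the middle of glycolysis and can go either way. Cells in either medium must make amino acids and sugar phosphates from these intermediates, and genes for ribosomes are known to be transcribed more in faster growing yeast.

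Most transcripts were higher in ethanol by a small amount, while the most abundant ones took a smaller share of the total. The 50 transcripts with the highest mean TPM in the series held 38.8%, 39.1% and 38.9% of all TPM in the ethanol libraries and 49.98%, 48.5% and 49.8% in the glycerol libraries. TPM is a relative unit, so a gene with an unchanged number of molecules appears higher when these take less. The median gene changed by 0.37 on the log2(TPM + 1) scale, and the middle 90% of genes lay between -0.55 and 1.51. Limma, with Benjamini-Hochberg adjustment over all 6192 genes, called 4847 of them (78.3%) below an adjusted p of 0.05, with 4021 higher in ethanol (64.9%) and 826 lower (13.3%). The counts given below for gene groups are to be read beside these shares of all genes. The 3 ethanol and 3 glycerol libraries did not overlap for 4866 genes (78.6%). A change of at least 2-fold was called upward for 869 genes (14.0%) and downward for 125 (2.02%). With each library centred on its median, 2056 were higher (33.2%) and 2517 lower (40.6%), so the split depends on the scale, and medians of gene groups are given beside their distance from the median of all genes or, where centring turns the sign, beside the centred median. The 3 libraries of each medium lay together, with the first principal component, which held 92.4% of the variance, separating the media. Of the 1548 genes with the highest levels, at 69.8 TPM or more, 55.7% were called higher and 23.6% lower, against 66.7% and 8.20% of the 1548 with the lowest.

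**Figure D1:**
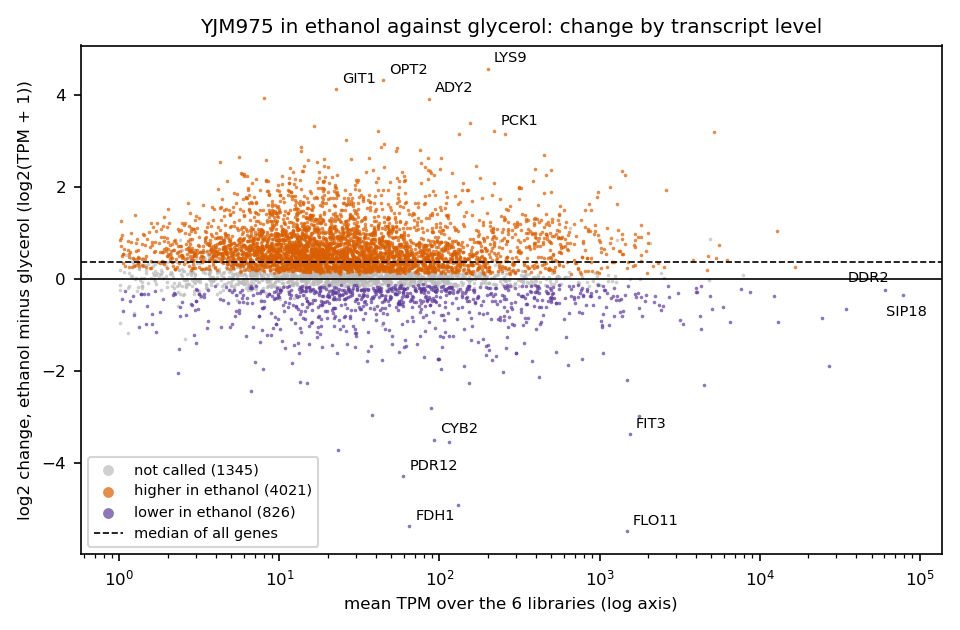
Log2 change in YJM975, ethanol minus glycerol on the log2(TPM + 1) scale, against the mean TPM over the 6 libraries (log axis), 1 point per gene. The 4021 genes called higher in ethanol are orange and the 826 called lower purple, and the dashed line marks the median of all genes at 0.37. FLO11 is the lowest point and LYS9 the highest, and the abundant SIP18 and DDR2 lie slightly below 0.

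Of all genes that fell in ethanol, FLO11 fell furthest among those at 10 TPM or more. The 10 largest falls and rises were taken from called genes whose ethanol and glycerol libraries do not overlap. The lack of overlap in these genes is therefore set by that choice. FLO11 encodes the cell-surface flocculin of biofilms and filamentous growth. It stood at 66.7, 62.2 and 61.3 TPM in the ethanol libraries, against 3004, 2878 and 2788 TPM in the glycerol libraries. The groups were far apart, and the log2 change was -5.49 ± 0.09 (adjusted p = 1.08e-17). In RNA of whole cultures, fewer cells with a transcript and less of it per cell cannot be told apart. FDH1, a formate dehydrogenase gene, stood at 2.48, 2.12 and 1.62 TPM in the ethanol libraries, against 122, 134 and 125 TPM in the glycerol libraries, with no overlap and a change of -5.39 ± 0.24 (adjusted p = 1.11e-12). Its relative FDH2 changed by -3.73 ± 0.14. In the reference assembly FDH2 overlaps the frame YPL276W, so the split of reads between them is uncertain. PDR12, which encodes a plasma membrane exporter of weak organic acids, stood at 5.50, 4.43 and 4.59 TPM in the ethanol libraries, against 105, 133 and 104 TPM in the glycerol libraries. All 3 ethanol libraries were below all 3 glycerol libraries, and the change was -4.30 ± 0.09 (adjusted p = 8.73e-17). CYB2 encodes the L-lactate dehydrogenase that passes electrons to cytochrome c. It averaged 14.2 ± 0.754 TPM in ethanol and 171 ± 13.7 TPM in glycerol (SD, n = 3), a change of -3.50 ± 0.08. The others of the 10 largest falls were HMX1, the heme oxygenase gene, at -3.56 ± 0.09, and the genes of the siderophore-binding wall mannoproteins FIT3 and FIT2, at -3.38 ± 0.08 and -2.98 ± 0.08. NMA1, for an adenylyltransferase of NAD synthesis, changed by -2.96 ± 0.06 and CYC7, for the minor cytochrome c, by -2.80 ± 0.06.

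Transporters and enzymes of lysine synthesis were among the 10 genes with the largest rise. LYS9, a saccharopine dehydrogenase late in lysine synthesis, stood at 393, 362 and 399.6 TPM in the ethanol libraries, against 15.2, 15.4 and 14.7 TPM in the glycerol libraries. Its change of 4.58 ± 0.05 (adjusted p = 1.14e-19) was the largest of all called genes at 10 TPM or more. OPT2, of the oligopeptide transporter family, averaged 85.6 ± 7.46 TPM in ethanol and 3.30 ± 0.285 TPM in glycerol, a change of 4.33 ± 0.08. GIT1, which takes up glycerophosphodiesters, rose to 43.3 ± 3.05 TPM in ethanol, against 1.52 ± 0.117 TPM in glycerol (4.14 ± 0.06). ADY2, the acetate transporter gene, stood at 168, 146 and 171 TPM in the ethanol libraries, against 8.32, 11.5 and 9.43 TPM in the glycerol libraries. The 3 ethanol libraries were all above the glycerol libraries, and the change was 3.93 ± 0.09 (adjusted p = 7.30e-16). Others among the 10 with the largest rise were CIS1 at 3.39 ± 0.09, the homoaconitase gene LYS4 at 3.23 ± 0.07, PCK1 at 3.23 ± 0.08, DPA10 at 3.21 ± 0.22 and ANB1 at 3.32 ± 0.13. DPA10 was the most abundant of them, at 9366 ± 425 TPM in ethanol and 1016 ± 70.6 TPM in glycerol. ANB1 encodes the form of translation factor eIF5A made under low oxygen. Its counterpart HYP2, for the aerobic form, was listed at 0 in all 6 libraries. Both belong to a pair of similar genes, so how the reads of ANB1 and HYP2 were divided is uncertain. ADF1 was listed at 0, to within 0.001 TPM, in the 3 glycerol libraries and at 17.5, 23.0 and 7.34 TPM in ethanol. ADF1 therefore passed the threshold through ethanol alone. It lies on the strand opposite FYV5, which stood at 57.8, 60.6 and 54.3 TPM in ethanol and 26.2, 22.4 and 28.1 TPM in glycerol, and without knowledge of the library's strand their reads cannot be told apart.

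**Figure D2:**
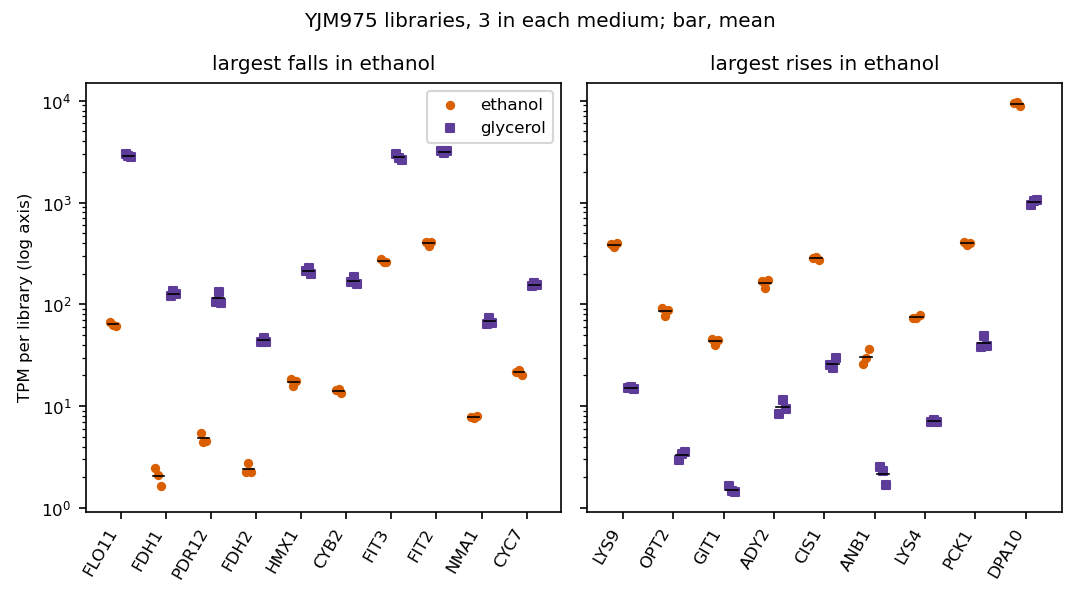
TPM of each YJM975 library (log axis) for the genes with the largest falls (left) and rises (right) in ethanol, with 3 ethanol libraries as circles left of 3 glycerol libraries as squares, and bars for means. The genes were chosen among those whose groups do not overlap, and ADF1, listed at 0 to within 0.001 TPM in glycerol, is left out.

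Of 26 genes of ethanol, acetaldehyde, acetate and lactate metabolism, 11 rose and 11 fell, and the median was 0.01, but -0.41 with median centring (11 higher, 15 lower). ADH2, the alcohol dehydrogenase that consumes ethanol, stood at 624, 686 and 706 TPM in the ethanol libraries, against 258, 260.2 and 231 TPM in the glycerol libraries. The groups did not overlap, with a change of 1.42 ± 0.09 (adjusted p = 1.73e-10). ADH1, the fermentative isoenzyme, changed by 1.50 ± 0.07. ALD6, the cytosolic acetaldehyde dehydrogenase gene, stood at 288, 276 and 292 TPM in the ethanol libraries, against 82.7, 88.5 and 79.6 TPM in the glycerol libraries, and changed by 1.76 ± 0.07 (adjusted p = 6.31e-13). The main mitochondrial isoenzyme, ALD4, stood at 804, 731 and 819 TPM in the ethanol libraries, against 1281, 1468 and 1245 TPM in the glycerol libraries. Every ethanol library was below every glycerol library for ALD4, and its change was -0.76 ± 0.09 (adjusted p = 3.62e-07). ACS1, the acetyl-CoA synthetase repressed by glucose, rose by 1.88 ± 0.09 and ACS2, its growth-essential counterpart, by 0.89 ± 0.08. ALD3, a cytosolic isoenzyme induced by stress, fell, with a change of -1.73 ± 0.07. Besides CYB2, the genes lower in ethanol included a second lactate gene: the lactate and pyruvate transporter JEN1 averaged 255 ± 12.3 TPM in ethanol and 542 ± 43.8 TPM in glycerol, a change of -1.09 ± 0.08. DLD3, a cytosolic D-lactate dehydrogenase gene, rose by 2.18 ± 0.07.

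Acetyl-CoA made in the cytosol reaches mitochondria partly as acetylcarnitine, and 3 genes of that shuttle rose. CRC1, the carnitine carrier of the inner mitochondrial membrane, stood at 487, 444 and 459 TPM in the ethanol libraries, against 49.1, 53.9 and 49.1 TPM in the glycerol libraries, a change of 3.17 ± 0.06. The carnitine acetyltransferase genes YAT1 and YAT2 rose by 2.69 ± 0.11 and 1.83 ± 0.07. The list that holds them also covers peroxisomal fatty acid oxidation, and 11 of its 18 genes rose, 4 of them by 2-fold or more, and 3 fell, with a median of 0.24, but -0.18 with median centring (5 higher, 10 lower).

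Genes of the glyoxylate cycle and gluconeogenesis were higher in ethanol for 10 of 15, 7 by 2-fold or more, and lower for 3. Their median was 0.66, or 0.29 relative to all genes, and median centring left 8 of the 15 higher and 5 lower. PCK1, for the phosphoenolpyruvate carboxykinase that starts gluconeogenesis, stood at 410.4, 383 and 397 TPM in the ethanol libraries, against 37.9, 48.6 and 38.7 TPM in the glycerol libraries. PCK1 is among the 10 largest rises, chosen for lack of overlap, and its smallest ethanol value was far above its largest glycerol value. ICL1, the isocitrate lyase gene, rose to 1870.1 ± 71.8 TPM in ethanol, against 464 ± 43.4 TPM in glycerol (2.01 ± 0.07). The malate synthase gene MLS1 rose by 1.62 ± 0.08, the peroxisomal citrate synthase gene CIT2 by 2.36 ± 0.08 and FBP1, for the gluconeogenic fructose-1,6-bisphosphatase, by 1.64 ± 0.06. In the TCA cycle 9 of 20 genes rose and 1 fell, with a median of 0.15, but -0.27 with median centring (3 higher, 15 lower). CIT1, the mitochondrial citrate synthase gene, rose by 0.55 ± 0.07 but was not called with median centring (0.13), and the succinate dehydrogenase genes SDH1 and SDH2 by 0.70 ± 0.07 and 0.90 ± 0.05.

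Of the 14 genes of glycerol use and synthesis, 5 rose and 4 fell, at a median of 0.02, but -0.40 with median centring (3 higher, 11 lower). GUT2, the mitochondrial glycerol-3-phosphate dehydrogenase gene, stood at 265, 259 and 269 TPM in the ethanol libraries, against 283, 319 and 261 TPM in the glycerol libraries. These values overlapped, and the change of -0.12 ± 0.08 was not called (adjusted p = 0.168), though at -0.54 with median centring GUT2 was called lower. The glycerol kinase gene GUT1 averaged 393 ± 15.6 TPM in ethanol and 334 ± 22.9 TPM in glycerol, a change of 0.24 ± 0.07 that turned to -0.18 with median centring, -0.02 with quantile normalization and -0.04 without the 50 most abundant transcripts. STL1, which imports glycerol with protons, stood at 70.0, 64.9 and 66.9 TPM in the ethanol libraries, against 155, 171 and 156 TPM in the glycerol libraries. Its ethanol libraries all lay below its glycerol libraries (-1.24 ± 0.07). On the side of synthesis, the glycerol-3-phosphatase genes GPP1 and GPP2 rose. GPP1 averaged 768 ± 32.2 TPM in ethanol and 159 ± 4.84 TPM in glycerol (2.26 ± 0.19) and GPP2 167 ± 10.2 TPM in ethanol and 52.5 ± 1.18 TPM in glycerol (1.65 ± 0.21). GPD1, the glycerol-3-phosphate dehydrogenase upstream of them, changed by 0.27 ± 0.05, or -0.15 with median centring and -0.04 with quantile normalization.

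Nuclear genes of the respiratory chain were lower in ethanol for 20 of 23 and higher for 2, against 13.3% and 64.9% of all genes. Their median was -0.51, or -0.88 relative to all genes. CYC1, the main cytochrome c gene, stood at 146, 152 and 163 TPM in the ethanol libraries, against 690.0, 649.7 and 698 TPM in the glycerol libraries. The groups were well apart, with a change of -2.14 ± 0.05 (adjusted p = 3.12e-16). NDE1, the external NADH dehydrogenase gene, changed by -1.42 ± 0.09. COX5A, the aerobic form of a cytochrome c oxidase subunit, changed by -0.47 ± 0.04, whereas the low-oxygen form COX5B changed by 0.38 ± 0.06, or -0.04 with median centring. For ATP synthase and its regulators 15 of 17 genes fell and none was called higher, with a median of -0.31, or -0.68 relative to all genes and no change of 2-fold. The largest were STF2, at -0.65 ± 0.06, ATP19, at -0.50 ± 0.06, and INH1, the ATPase inhibitor gene, at -0.39 ± 0.05. Electron transport genes took 2.34 ± 0.0110% of all TPM in ethanol and 3.42 ± 0.107% in glycerol (SD, n = 3 each). Mitochondrial ribosomal protein genes were split, with 28 of 71 higher and 8 lower and a median of 0.09, but -0.32 with median centring (2 higher, 57 lower). RSM22 had the largest change among them, 1.04 ± 0.06, followed by MRPL27 at 0.58 ± 0.06, not called with median centring (0.17), and RSM19 at 0.57 ± 0.05.

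Transcription factors of carbon use moved in both directions. CAT8, the activator of gluconeogenic genes, stood at 20.8, 20.1 and 18.7 TPM in the ethanol libraries, against 22.7, 26.5 and 21.6 TPM in the glycerol libraries and changed by -0.23 ± 0.08. The call for CAT8 was lost without glycerol replicate 2 or ethanol replicate 3 (adjusted p = 0.0808 and 0.0541, limma). ADR1, the activator of ADH2 and peroxisomal genes, changed by -0.62 ± 0.10. SIP4, another activator that binds the same promoter element as CAT8, rose by 1.04 ± 0.08, and HAP4, the limiting subunit of the activator of respiratory genes, was not called at -0.11 ± 0.06 (adjusted p = 0.111), though at -0.53 with median centring it was called lower. MIG1, the repressor of glucose-repressed genes, stood at 20.1, 17.9 and 19.8 TPM in the ethanol libraries, against 6.39, 6.75 and 5.97 TPM in the glycerol libraries, and REG2, a phosphatase regulatory subunit, rose by 1.23 ± 0.06. USV1, a zinc finger factor of growth on nonfermentable carbon, changed by -1.30 ± 0.09. Among 34 regulators of carbon use 22 rose and 7 fell, against 64.9% and 13.3% of all genes. Their median was 0.31, but -0.11 with median centring (12 higher, 17 lower).

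Glycolytic genes were higher in ethanol for 14 of 17 and lower for 2, with a median of 0.47, or 0.10 relative to all genes. Median centring left 7 of the 17 higher and 5 lower. The enolase gene ENO2 rose by 1.97 ± 0.09, the pyruvate kinase gene PYK2 by 1.34 ± 0.09 and TDH2, near-identical to TDH3 and therefore uncertain, by 1.29 ± 0.07. The hexokinase genes moved apart: HXK2 averaged 5.26 ± 0.697 TPM in ethanol and 1.84 ± 0.316 TPM in glycerol (1.14 ± 0.12) and HXK1 333 ± 13.3 TPM in ethanol and 403 ± 38.3 TPM in glycerol (-0.27 ± 0.08). Of the 11 hexose transporter and sensor genes above the threshold 7 rose and 2 fell, none by 2-fold, shares near those of all genes, at a median of 0.37, but -0.05 with median centring (1 higher, 3 lower), led by HXT1 at 0.84 ± 0.07 and the galactose permease gene GAL2 at 0.48 ± 0.09. HXT5, the transporter of slow growth, was not called at -0.15 ± 0.12 (adjusted p = 0.251), though at -0.57 with median centring it was called lower. HXT6, near-identical to HXT7, changed by 0.49 ± 0.14, and neither HXT6 nor GAL2 was called with median centring (0.07 and 0.06). None of the 9 measured maltose and sucrose genes rose, and 7 fell, with a median of -0.32, or -0.69 relative to all genes. The maltose permease gene MAL31 changed by -1.09 ± 0.07, the maltose activator gene MAL33 by -0.43 ± 0.05 and the isomaltase gene IMA1 by -0.71 ± 0.08.

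**Figure D3:**
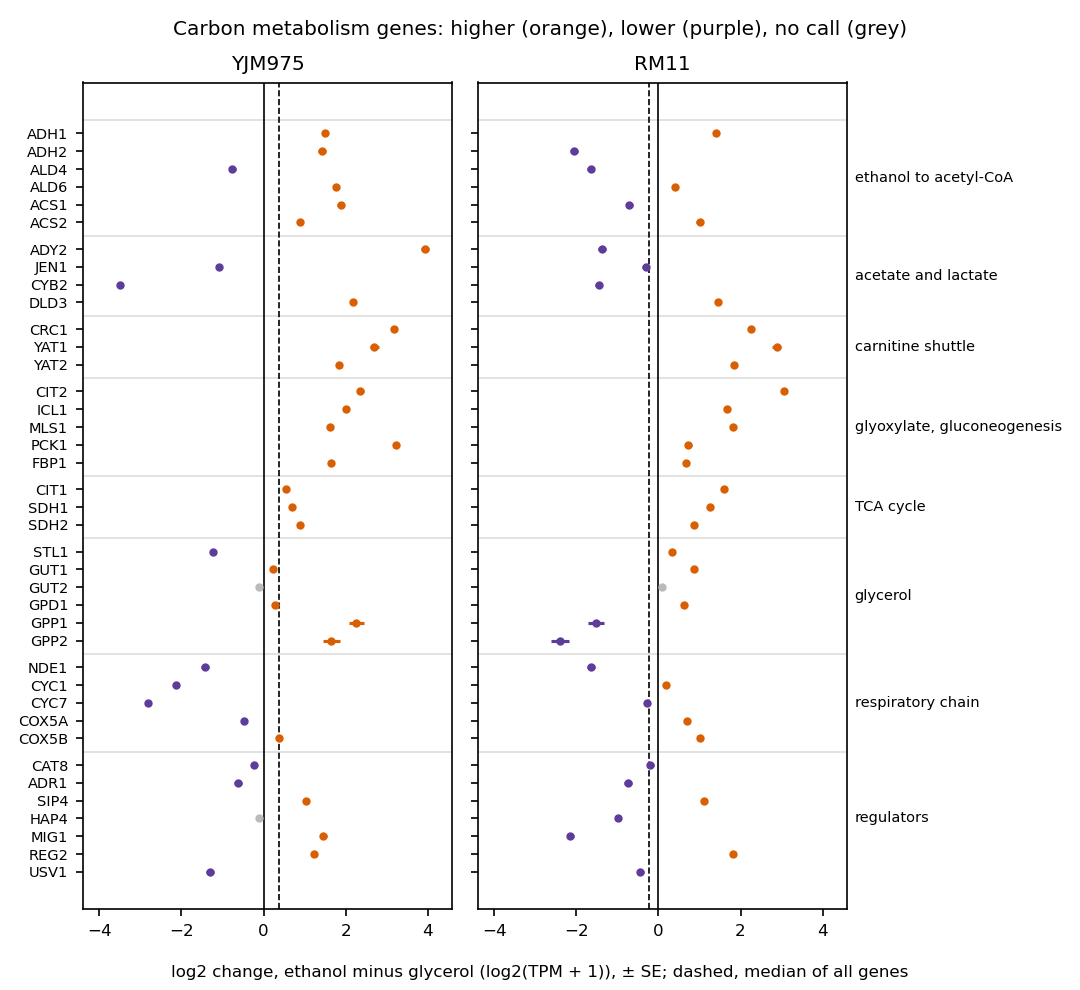
Log2 change, ethanol minus glycerol (log2(TPM + 1)) ± SE, of carbon metabolism genes by route in YJM975 (left) and RM11 (right). Orange points are called higher in ethanol, purple lower and grey not called, and dashed lines mark the median of all genes, 0.37 in YJM975 and -0.22 in RM11. In YJM975 the carnitine, glyoxylate and gluconeogenesis genes shown lie right of the line and CYB2, CYC7 and CYC1 far left of it.

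Ribosome biogenesis genes were higher for 109 of 110, 91 of them by 2-fold or more, against 64.9% and 14.0% of all genes. Their median was 1.48, or 1.11 relative to all genes, and it stayed at 1.06 with median centring and 0.96 with quantile normalization. The member not called higher was RIO1, a protein kinase gene named here after its value was seen, at -0.09 ± 0.07, or -0.50 with median centring, where it was called lower. MRT4, for a factor that joins the ribosomal stalk site during assembly, stood at 82.1, 77.2 and 82.5 TPM in the ethanol libraries, against 9.09, 10.4 and 9.38 TPM in the glycerol libraries. There was no overlap, and the change was 2.94 ± 0.07 (adjusted p = 3.12e-16). SSF1, of large subunit assembly, rose by 2.79 ± 0.10 and NSR1, the yeast nucleolin, by 2.65 ± 0.31. Of 26 genes for RNA polymerases I and III and the subunits they share, 26 rose, with a median of 1.35, or 0.98 relative to all genes, led by the polymerase I subunits RPA12 at 2.88 ± 0.10, RPA49 at 2.61 ± 0.09 and RPA34 at 2.33 ± 0.11.

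Cytosolic ribosomal protein genes rose for 137 of 137, 68 of them by 2-fold or more, against 64.9% and 14.0% of all genes. Their median was 1.00, or 0.63 relative to all genes. They spread less than the biogenesis genes, between 0.40 and 2.38, against -0.09 to 2.94. RPL33B, of the large subunit, averaged 831 ± 35.3 TPM in ethanol and 159 ± 17.1 TPM in glycerol (2.38 ± 0.09), and RPL6B and RPS22A, of the large and small subunits, changed by 1.93 ± 0.11 and 1.93 ± 0.07. Many of these genes come in similar pairs, so single paralogs are less certain than the sum. Together they took 10.8 ± 0.454% of all TPM in ethanol and 5.65 ± 0.175% in glycerol (SD, n = 3 each). Of 32 translation factor genes, 31 rose, with a median of 0.68, or 0.31 relative to all genes. When centred, 18 of the 32 were higher and 4 lower. After ANB1 the largest rises were those of TEF4, for a subunit of elongation factor 1 and overlapping a small nucleolar RNA gene, at 1.57 ± 0.07, and TIF5, for eIF5, at 1.42 ± 0.05. Proteasome genes rose for 33 of 35, none by 2-fold, at a median of 0.43, or 0.06 relative to all genes. Median centring left 13 of the 35 higher and 6 lower. The largest proteasome changes were those of the core particle genes PUP1, PRE1 and PRE10, 0.84 ± 0.04, 0.80 ± 0.06 and 0.80 ± 0.06.

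Of 9 lysine synthesis genes 9 rose, 8 of them by 2-fold or more, with a median of 2.09, or 1.72 relative to all genes. The pathway runs from homocitrate synthase, encoded by LYS20 and LYS21, through LYS4 and LYS12 to 2-aminoadipate, and then through LYS2, LYS9 and LYS1 to lysine. LYS20 stood at 616, 612 and 634 TPM in the ethanol libraries, against 204, 210.2 and 195 TPM in the glycerol libraries, a change of 1.61 ± 0.06. LYS21, LYS4 and LYS12 rose by 2.09, 3.23 and 2.46, and LYS2, LYS9 and LYS1 by 1.76, 4.58 and 2.53. The pathway activator LYS14 rose by 1.51 ± 0.07. LYS5, which activates the LYS2 protein, rose by 0.16 ± 0.06, but stood at -0.25 with median centring, -0.28 with quantile normalization and -0.10 without the 50 most abundant transcripts. Its call was also lost without any of 4 single libraries, glycerol replicates 1 and 2 and ethanol replicates 2 and 3 (adjusted p between 0.0523 and 0.109 for LYS5, limma).

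Arginine synthesis and breakdown genes rose for 12 of 15, at a median of 0.63, or 0.26 relative to all genes. When centred, 9 of the 15 were higher and 6 lower. ARG4 rose by 2.20 ± 0.07 and ARG1 by 2.14 ± 0.06. For the branched-chain amino acids 11 of 12 rose, at 0.85, or 0.48 relative to all genes, with ILV3 at 1.84 ± 0.06, LEU9 at 1.74 ± 0.08 and ILV1 at 1.58 ± 0.09. Of 34 sulfur amino acid genes 19 were higher and 6 lower, at a median of 0.39, but -0.03 with median centring (14 higher, 16 lower). HOM3, the aspartate kinase gene that feeds methionine and threonine synthesis, averaged 95.8 ± 5.59 TPM in ethanol and 12.3 ± 0.549 TPM in glycerol (2.86 ± 0.08), and MET16 and MET31 changed by 1.83 ± 0.10 and 1.06 ± 0.07. Nitrogen uptake and assimilation genes rose for 28 of 38, 16 by 2-fold or more, and fell for 2. Their median was 0.84, or 0.47 relative to all genes, and median centring left 23 higher and 11 lower. GDH1, the NADPH-dependent glutamate dehydrogenase gene, stood at 232, 225 and 259 TPM in the ethanol libraries, against 24.4, 27.3 and 26.0 TPM in the glycerol libraries. The media did not overlap (3.15 ± 0.08, adjusted p = 1.80e-15). GAP1, the general amino acid permease, rose by 2.32 ± 0.08 and DAL80, a repressor of nitrogen catabolic genes, by 2.16 ± 0.09. In purine and pyrimidine synthesis 26 of 29 genes rose and 1 fell, at 0.86, or 0.49 relative to all genes. ADE4, the first enzyme of purine synthesis, rose by 2.26 ± 0.05, IMD4, an IMP dehydrogenase gene with a small nucleolar RNA gene inside it, by 2.25 ± 0.10 and URA7, a CTP synthase, by 2.24 ± 0.10.

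Stress and quiescence genes held the most abundant transcripts of these libraries. Of 35 such genes 26 fell, 9 by 2-fold or more, and 6 rose, with a median of -0.65, or -1.02 relative to all genes. Together they took 20.8 ± 0.410% of all TPM in ethanol and 28.2 ± 0.249% in glycerol (SD, n = 3 each). SIP18, a gene of the desiccation response and the most abundant transcript of these libraries, stood at 65481, 74708 and 67084 TPM in the ethanol libraries, against 89218, 82722 and 91467 TPM in the glycerol libraries. The groups did not overlap, and the change of -0.35 ± 0.07 was 0 with quantile normalization, which gives the same value to the top rank in each library. DDR2 and HSP12 were not called under that setting either. DDR2, of the general stress response, averaged 55367 ± 2242 TPM in ethanol and 65701 ± 2399 TPM in glycerol (-0.25 ± 0.05), and HSP12, a small membrane heat shock gene, 17476 ± 1108 TPM in ethanol and 31531 ± 893 TPM in glycerol (-0.85 ± 0.06). SPI1, a wall protein gene induced in stationary phase, averaged 532 ± 4.88 TPM in ethanol and 2442 ± 267 TPM in glycerol (-2.19 ± 0.06). ALD3, a stress-induced aldehyde dehydrogenase gene, and RGI1, of energy metabolism, changed by -1.73 ± 0.07 and -1.68 ± 0.10.

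Heat shock genes were split, with 14 of 32 higher and 10 lower, at 0.07, but -0.35 with median centring (9 higher, 20 lower). The small heat shock gene HSP26 rose by 1.18 ± 0.05 and the Hsp40 gene YDJ1 by 1.49 ± 0.07, while HSP32, near-identical to HSP33 and SNO4 and so uncertain, changed by -1.51 ± 0.05. Trehalose and glycogen genes were lower for 11 of 21 and higher for 4, none by 2-fold, at a median of -0.26, or -0.63 relative to all genes. The leading changes were those of glycogen phosphorylase, GPH1 (-0.75 ± 0.08), glycogen synthase, GSY2 (-0.72 ± 0.08), and the glycogenin gene GLG2 (-0.72 ± 0.05). Among 28 peroxide and thiol defence genes 13 rose and 11 fell, at a median of 0.04, but -0.38 with median centring (3 higher, 21 lower), with the peroxiredoxin gene TSA2 at -1.23 ± 0.05, the glutaredoxin gene GRX3 at 1.08 ± 0.04 and the mitochondrial thioredoxin reductase gene TRR2 at 0.71 ± 0.05.

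Iron uptake and recycling genes were lower in ethanol for 17 of 29, 9 of them by 2-fold or more against 2.02% of all genes, and higher for 8. The median was -0.38, or -0.75 relative to all genes. FIT3 stood at 279.8, 261 and 262 TPM in the ethanol libraries, against 3028, 2756 and 2643 TPM in the glycerol libraries. FIT2 stood at 405, 376 and 408 TPM in the ethanol libraries, against 3180.3, 3066 and 3171 TPM in the glycerol libraries. In both genes every ethanol library was below every glycerol library by several-fold. HMX1, whose enzyme frees iron from heme, averaged 17.2 ± 1.41 TPM in ethanol and 213 ± 13.8 TPM in glycerol. In the zinc group 5 of 15 genes fell and 5 rose, with a median of -0.09, or -0.46 relative to all genes, and the largest changes were rises of the membrane receptor-like genes IZH2, IZH4 and IZH1, at 1.62 ± 0.06, 1.14 ± 0.10 and 1.01 ± 0.07. Phosphate genes rose for 19 of 25, against 64.9% of all genes, at a median of 0.45, or 0.08 relative to all genes. Median centring left 9 of them higher and 8 lower. After GIT1 came the low-affinity phosphate transporter gene PHO90 at 1.80 ± 0.10 and PHM6 at 1.33 ± 0.14. Biotin genes moved in both directions. BIO3 and BIO2, of synthesis, rose by 0.81 ± 0.08 and 0.97 ± 0.05, whereas BIO4, also of synthesis, and the transporters BIO5 and VHT1 changed by -0.79 ± 0.07, -0.37 ± 0.07 and -0.52 ± 0.09. BPL1, the biotin ligase gene, was not called (0.05 ± 0.06), or was called lower at -0.37 with median centring. Of 19 thiamine genes 13 rose and 4 fell, against 64.9% and 13.3% of all genes. Their median was 0.38, but -0.04 with median centring (8 higher, 8 lower). THI20 led the rises at 1.35 ± 0.05, and the near-identical SNZ2 and SNZ3, of vitamin B6 synthesis, stood at -1.07 ± 0.13 and -1.14 ± 0.07.

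Of 27 flocculin genes and regulators of filamentous growth 13 rose and 6 fell, at a median of 0.16, but -0.26 with median centring (6 higher, 17 lower). NRG2, a repressor that acts on FLO11, stood at 13.7, 12.3 and 14.9 TPM in the ethanol libraries, against 3.62, 4.30 and 4.63 TPM in the glycerol libraries, a rise of 1.50 ± 0.09, and RAS1, a GTPase gene of the Ras and cyclic AMP pathway, rose by 1.49 ± 0.09. Of 28 wall mannoprotein genes 13 rose and 10 fell, 6 of these by 2-fold or more, at a median of 0.17, but -0.25 with median centring (2 higher, 14 lower), and the largest falls were those of FIT3, FIT2 and SPI1.

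Cell cycle genes moved in both directions, with 21 of 42 higher and 15 lower, at 0.09, but -0.33 with median centring (8 higher, 25 lower). DSE1, of daughter cell separation, changed by -1.61 ± 0.08. The B-type cyclin gene CLB2, at 0.723 ± 0.0197 TPM in ethanol and 3.97 ± 0.273 TPM in glycerol, changed by -1.53 ± 0.08. CLB2 passed the threshold through glycerol alone. RNR2, a ribonucleotide reductase subunit gene, rose by 1.46 ± 0.07. Histone genes rose for 9 of 10, at 0.56, or 0.19 relative to all genes. Median centring left 5 of the 10 higher and 3 lower. HTB2, for H2B, rose by 1.53 ± 0.06, HTA2 by 0.68 ± 0.06, HHF1 and HHF2, near-identical genes for H4, by 0.67 ± 0.08 and 0.57 ± 0.07, HHT2 by 0.65 ± 0.05 and HTB1 by 0.54 ± 0.05. HHO1, HHT1 and HTA1 rose by 0.33, 0.23 and 0.22 but stood at -0.09, -0.18 and -0.20 with median centring, and the H2A variant gene HTZ1 was not called (0.01 ± 0.06), or was called lower at -0.41 with centring. HHF2 was not called with median centring (0.16).

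Meiosis and sporulation genes rose for 21 and fell for 11 of the 44 above the threshold, at 0.16, but -0.26 with median centring (9 higher, 24 lower). IME1, the inducer of meiosis, stood at 93.5, 93.1 and 81.8 TPM in the ethanol libraries, against 219, 219 and 243 TPM in the glycerol libraries. Its libraries did not overlap (-1.33 ± 0.07), while NDT80, the activator of the middle sporulation genes, stood at 6.03, 6.43 and 6.14 TPM in the ethanol libraries, against 6.32, 7.34 and 7.34 TPM in the glycerol libraries (-0.15 ± 0.06, adjusted p = 0.0369). The call for NDT80 was lost when glycerol replicate 2 or 3 or ethanol replicate 1 or 3 was left out (adjusted p between 0.0769 and 0.139, limma). SPS100, a spore wall gene that overlaps a noncoding transcript, averaged 1939.5 ± 172 TPM in ethanol and 624 ± 42.7 TPM in glycerol (1.63 ± 0.09), and SPO19 rose by 1.51 ± 0.11. As a check of the labelled ploidy, a list of 25 mating and haploid genes was measured, most of which a/alpha diploid cells are known to repress. It also holds MATALPHA2, which such cells express, at between 37.6 and 42.5 TPM in ethanol and between 34.1 and 41.0 TPM in glycerol. The 25 summed to between 751 and 831 TPM in the ethanol libraries and between 577 and 612 TPM in the glycerol libraries, of which MFA1, for a pheromone, held at least 367 TPM in ethanol and 309 TPM in glycerol. MFA2, for the same pheromone, followed at no more than 155 TPM in ethanol and 100.2 TPM in glycerol. HO, the mating-type endonuclease gene, stood at no more than 0.437 TPM in ethanol and 0.122 TPM in glycerol, and none of the 25 was at 0 in all 6 libraries. Of the 21 above the threshold 13 rose and 2 fell, near the shares of all genes, at a median of 0.29, but -0.13 with median centring (6 higher, 9 lower), with the agglutinin genes AGA1 at 1.06 ± 0.09 and AGA2 at 0.90 ± 0.15 and the pheromone gene MF(ALPHA)2 at 1.09 ± 0.13. The levels of MFA1 and MFA2 go against the repression of these genes known in a/alpha diploids. STE3 stood at no more than 4.05 TPM and MATALPHA1 at no more than 1.28 TPM. Both are alpha-specific and low in a cells too, so they cannot decide the state. Among genes of haploids of either mating type, STE4 and GPA1 stood at no more than 7.05 and 4.31 TPM. FUS3 and RME1 reached 27.2 and 22.1 TPM. AGA2 lay between these and MFA2, at up to 66.3 TPM, so the list was mixed and does not settle the labelled state. The part of MFA1 and MFA2 in the other results was not tested.

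Of 31 sterol genes 15 rose and 10 fell, at 0.10, but -0.31 with median centring (9 higher, 16 lower). SUT1, a regulator of sterol uptake, stood at 0.291 ± 0.171 TPM in ethanol and 4.37 ± 0.807 TPM in glycerol (-2.05 ± 0.14). It passed the threshold through glycerol alone. HMG1, for HMG-CoA reductase, changed by -1.47 ± 0.07 and HES1, for an oxysterol-binding protein, by 1.33 ± 0.10. In fatty acid and phospholipid synthesis 18 of 27 genes rose and 4 fell, against 64.9% and 13.3% of all genes. Their median was 0.39, but -0.03 with median centring (13 higher, 13 lower). INO1, the inositol synthesis gene, stood at 99.1, 91.8 and 103 TPM in the ethanol libraries, against 413, 455 and 344 TPM in the glycerol libraries. Those groups were apart (-2.02 ± 0.10), and FAA4, an acyl-CoA synthetase gene, and PCT1, of phosphatidylcholine synthesis, rose by 2.14 ± 0.07 and 1.50 ± 0.06. Among 33 autophagy genes 17 rose and 3 fell, none by 2-fold, at 0.18, but -0.24 with median centring (3 higher, 23 lower). The lipase gene ATG15 changed by 0.56 ± 0.12 and was not called with median centring (0.14), and ATG23 and ATG27, of membrane supply to the autophagosome, by 0.60 ± 0.06 and 0.71 ± 0.06. For mitochondrial import and tethering 10 of 18 genes rose and 1 fell, at a median of 0.17, but -0.25 with median centring (3 higher, 11 lower), with the porin gene POR2 at 1.42 ± 0.08, the import receptor gene TOM20 at 0.63 ± 0.07 and MDM10, of the tether to the endoplasmic reticulum, at 0.64 ± 0.09, or 0.11 and not called with quantile normalization. Of 8 protein genes of the mitochondrial genome, whose mRNAs are poorly captured by polyA enrichment, OLI1 alone passed the threshold, at 8.21 ± 1.85 TPM in ethanol and 1.13 ± 0.631 TPM in glycerol (2.13 ± 0.34).

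**Figure D4:**
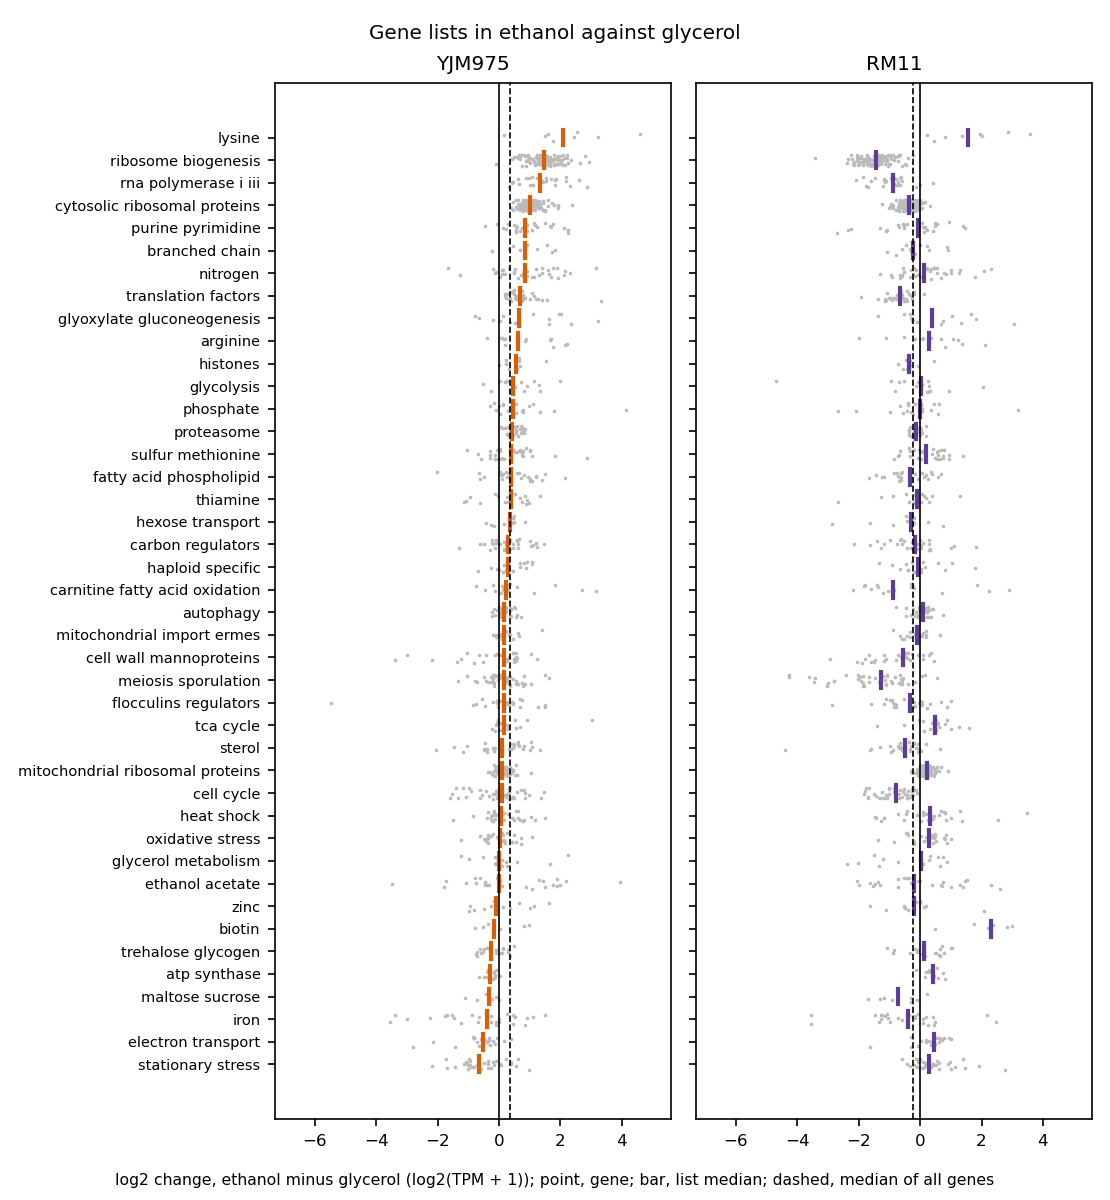
Log2 change, ethanol minus glycerol (log2(TPM + 1)), of the members of each gene list with 6 or more measured genes, in YJM975 (left) and RM11 (right). Points are genes, bars list medians and dashed lines the median of all genes (0.37 and -0.22). Lists are ordered by their median in YJM975, from stationary phase and stress genes at -0.65 to lysine synthesis at 2.09. The ribosome biogenesis bar stands at 1.48 in YJM975 and -1.43 in RM11.

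The same media were compared in RM11, derived from a vineyard isolate, whose libraries are separate from those of YJM975. There limma called 1343 of the 6192 genes higher in ethanol (21.7%) and 3337 lower (53.9%), and the median gene changed by -0.22. The difference of the changes, YJM975 minus RM11, was called for 5019 genes (81.1%), above 0 for 4054 (65.5%) and below 0 for 965 (15.6%), or for 2118 and 2763 with median centring. Across genes, which are not independent, the changes of the strains had a Pearson correlation of -0.11 and a Spearman correlation of -0.24. Of the 3774 genes called in both strains, 2731 had opposite directions (72.4%). As shares of all 6192 genes, 2461 were higher in YJM975 and lower in RM11 (39.7%), and 270 the reverse (4.36%). Another 684 were higher in both (11.0%) and 359 lower in both (5.80%). Opposite calls were not counted with median centring, which takes 0.42 from YJM975 changes and -0.30 from RM11 changes. These counts are therefore those of the TPM scale. The labels give 1 range of optical density for all cultures and none per culture. Whether density or growth stage differed between the strains or media was therefore not tested. No deleted or added gene was used to check the library labels. URA3 was listed at 0 in all 6 YJM975 ethanol and glycerol libraries, so it cannot separate these media.

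Ribosome biogenesis genes were called in opposite directions for 109 of 110, with a median of 1.48 in YJM975 and -1.43 in RM11, and the difference was called for 110. MRT4 averaged 80.6 ± 2.99 TPM in ethanol and 9.63 ± 0.696 TPM in glycerol in YJM975, and 34.5 ± 1.52 TPM in ethanol and 157 ± 3.65 TPM in glycerol in RM11. The difference was 5.09 ± 0.09 (adjusted p = 1.61e-16). For ribosomal protein genes 114 of 137 were called in opposite directions, against 44.1% of all genes, with medians of 1.00 in YJM975 and -0.38 in RM11. That RM11 median is near the -0.30 that centring takes from RM11 changes. How many of these genes stay opposite with centring was not counted. Electron transport genes were opposite for 16 of 23, with medians of -0.51 in YJM975 and 0.44 in RM11, and ATP synthase genes for 13 of 17, at -0.31 in YJM975 and 0.40 in RM11. Stress and quiescence genes had medians of -0.65 in YJM975 and 0.27 in RM11, and 15 of 35 were called in opposite directions, near the 44.1% of all genes.

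Lysine synthesis genes rose in both strains, 9 of 9 in YJM975 and 9 in RM11, and 0 were opposite, with medians of 2.09 in YJM975 and 1.55 in RM11, although the difference was called for 6. The formate dehydrogenase gene FDH1 changed by -5.39 ± 0.24 in YJM975 and -7.04 ± 0.24 in RM11, and PDR12 by -4.30 ± 0.09 in YJM975 and -3.38 ± 0.09 in RM11. YAT1 and YAT2 rose by 2.69 ± 0.11 and 1.83 ± 0.07 in YJM975 and by 2.88 ± 0.11 and 1.84 ± 0.07 in RM11. Their differences, -0.19 ± 0.16 and -0.01 ± 0.10, were not called (adjusted p = 0.278 and 0.925), but with median centring those of YAT1 and YAT2 stood at -0.91 and -0.73 and were called. FLO11 was low in both RM11 groups, at 6.81 ± 0.548 TPM in ethanol and 8.75 ± 1.16 TPM in glycerol, with a difference of -5.17 ± 0.13. ADH2 had the reverse order in RM11, at 406 ± 37.9 TPM in ethanol and 1686 ± 122 TPM in glycerol, a difference of 3.48 ± 0.13. Besides ADF1, the largest differences were those of HXK2 (5.85 ± 0.17), SPO19 (5.79 ± 0.15), SPR2, a sporulation gene at 0.979 ± 0.0165 TPM in ethanol and 2.00 ± 0.428 TPM in glycerol in YJM975 (5.52 ± 0.26), and ADY2 (5.30 ± 0.13). SPR2 passed the threshold through glycerol alone and was not higher in ethanol in YJM975, so its difference above 0 comes from RM11. For HXK2, RM11 stood at 1.79 ± 0.547 TPM in ethanol and 71.3 ± 6.78 TPM in glycerol.

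**Figure D5:**
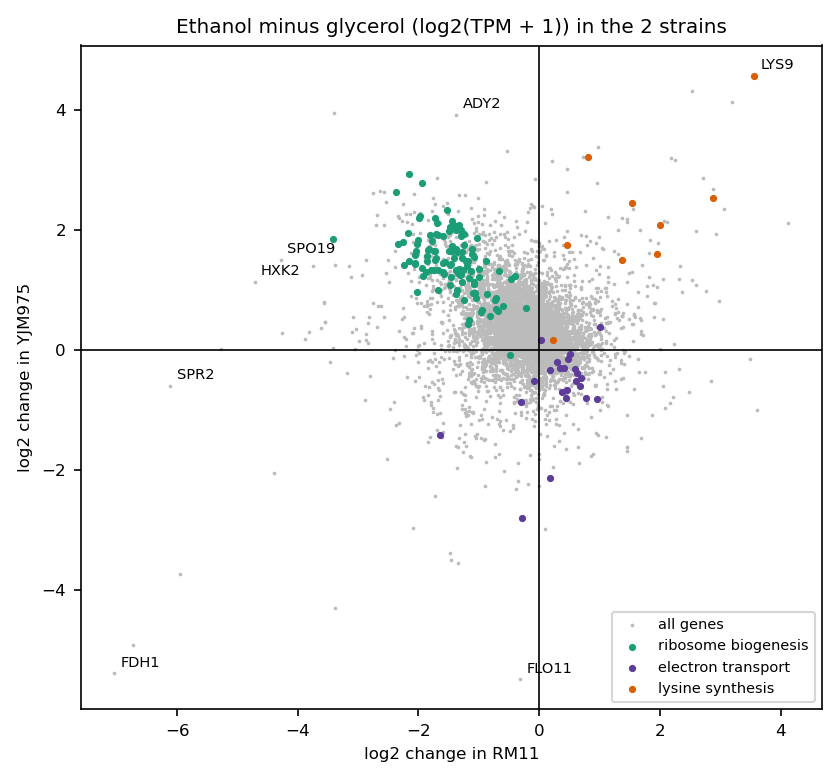
Log2 change in YJM975 against that in RM11, ethanol minus glycerol (log2(TPM + 1)), 1 point per gene. Most ribosome biogenesis genes (green) lie in the upper left, where YJM975 is higher and RM11 lower in ethanol, most electron transport genes (purple) lie in the lower right, and the lysine synthesis genes (orange) lie in the upper right.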

How the data were processed

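PolyA-selected RNA from YJM975 and RM11 was sequenced in 18 libraries, 3 per strain and medium. The authors deposited TPM (transcripts per 1000000), made with kallisto per the submitters' processing notes. Its version, transcript set and genome build were not stated in the labels or the table. Each library's TPM summed to 1000000 within 1 TPM, and TPM carries no depth, so no counting interval can be given.

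Values were taken as log2(TPM + 1). One limma fit (version 3.58.1, R 4.3.3) of 6 group means over the 18 libraries, with a mean-variance trend and 12 residual degrees of freedom, gave the YJM975 change, the RM11 change and their difference for the 6192 genes whose 6 YJM975 libraries averaged 1 TPM or more, Benjamini-Hochberg adjusted over all of them and called below 0.05. The fit was tested on simulated data with changes in a small part of the genes. That test held no shift of the whole scale, so it cannot speak to how the calls depend on the scale. Every sample was grouped by its label, and the table held 0 columns of other samples. Within the YJM975 ethanol and glycerol groups, the only ones examined in this way, replicates correlated at 0.9954 to 0.9965. The labels call them biological triplicates.

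Gene names were matched to the R64 annotation for 5929 of 6612 transcripts, which was used for names, copies and overlaps. Of the 6192 genes, 139 had a near-identical copy (BLAST 2.17.0, at least 95% identity over 50% of the coding sequence) and 163 overlapped another gene. Python 3.11.15, pandas 2.3.3, NumPy 2.4.6, SciPy 1.17.1 and matplotlib 3.10.9 were used. No coordinates or sequences are printed.

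Named genes were the 10 largest called rises and falls at 10 TPM or more whose libraries do not overlap, without near-identical copies or unnamed transcripts, up to 3 called members of each of 43 gene lists with the largest change, all members of lists of up to 10 genes, a set of reference genes and the 5 largest strain differences. Some genes that this rule names are not reported here. The genes and lists were chosen with earlier results of these data known. The alternatives were pseudocounts of 0.1 and 5, no filter and filters at 10 TPM or over all 18 libraries, median centring, quantile normalization, leaving out the 50 most abundant transcripts, fits on the compared groups or without glucose, no trend, a robust fit, a replicate block and leaving out each library.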

Additional observations from a re-analysis of the deposited data

Results flagged for a closer look

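Of the 174 genes whose values are given, 68 were called in opposite directions in YJM975 and RM11, with the difference itself called by limma, beside 2731 of all 6192 genes (44.1%). The values here are the log2 change in YJM975 minus that in RM11, ethanol minus glycerol in each.

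Higher in ethanol in YJM975 and lower in RM11 on the TPM scale were 51 of them. Centring takes 0.42 from the YJM975 changes and -0.30 from those in RM11, so the smaller of these opposite calls depend on the scale. HHT1, HTA1 and HHO1 stood at -0.18, -0.20 and -0.09 in YJM975 when centred. The RM11 changes of PRE10, PCT1 and IZH2 were -0.19, -0.18 and -0.20, smaller in size than the shift taken from that strain. So were those of HXT1 and ATG23, at -0.29 each, and that of RSM22. The ribosome and polymerase genes were MRT4 (5.09), NSR1 (5.02), SSF1 (4.73), RPA49 (4.69), RPA12 (4.57), RPA34 (4.11), RPS22A (2.93), RPL6B (2.58) and RSM22 (1.22). The translation, chaperone and proteasome genes were ANB1 (3.86), TEF4 (2.67), TIF5 (2.33), YDJ1 (2.69) and PRE10 (0.99). Carbon metabolism and its transport gave HXK2 (5.85), ADY2 (5.30), GPP2 (4.04), GPP1 (3.78), MIG1 (3.60), ADH2 (3.48), ACS1 (2.59), ENO2 (2.51), HXT1 (1.12) and GAL2 (0.95). Nucleotide and amino acid synthesis gave IMD4 (4.94), URA7 (4.58), RNR2 (2.69), LEU9 (2.82), ILV1 (2.03) and MET31 (1.79). The lipid, phosphate, zinc and membrane genes were PHO90 (3.89), FAA4 (3.81), IZH4 (2.78), IZH2 (1.82), IZH1 (1.52), PCT1 (1.68), HES1 (1.93), POR2 (2.32), MDM10 (1.30), RAS1 (2.35) and ATG23 (0.88). Histone genes were HTB2 (1.86), HHF1 (1.04), HHF2 (0.99), HTA1 (0.95), HHO1 (0.90), HTB1 (0.89) and HHT1 (0.71), of which HHT1 turned to -0.01 with median centring. The others were SPO19 (5.79) and AGA1 (1.54) and ADF1. The fitted value of ADF1 was 7.35, with the gene listed at 0, to within 0.001 TPM, in the YJM975 glycerol libraries, so that its size depends on the pseudocount.

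Lower in ethanol in YJM975 and higher in RM11 were 17. Respiration and ATP synthase genes were CYC1 (-2.31), COX5A (-1.17), STF2 (-1.08), ATP19 (-0.89) and INH1 (-0.55). Stress, storage and vitamin B6 genes were RGI1 (-3.13), HSP32 (-1.84), TSA2 (-1.50), SNZ3 (-1.43), GLG2 (-1.36), SIP18 (-1.24) and HSP12 (-1.19). The biotin genes were VHT1 (-3.36), BIO4 (-3.01) and BIO5 (-2.12), and transport and regulation of other carbon sources gave STL1 (-1.58) and MAL33 (-0.66).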

How the results depend on the processing

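The number of genes called between ethanol and glycerol in YJM975, 4847, kept within 1.5 times under every setting tried, but the split by direction moved with the scale. Median centring gave 2056 higher and 2517 lower, quantile normalization 2096 and 2443, and leaving out the 50 most abundant transcripts 1674 lower. For changes of 2-fold or more the same settings gave 378, 385 and 567 higher and 289, 264 and 206 lower, and a pseudocount of 5 gave 567 higher. For the difference between strains, median centring gave 2118 above 0 and 2763 below, quantile normalization 2127 and 2734, and leaving out the 50 transcripts 1745 below. By 2-fold or more these were 742, 848 and 1260 above and 898, 752 and 441 below. Centring takes a constant from every change, 0.42 in YJM975, -0.30 in RM11 and 0.72 for their difference, and beyond that the cause was not tested. The range without single libraries was 4649 to 4766 in YJM975 and 4924 to 5013 for the difference. An unadjusted p below 0.05 was reached by 4922 genes.

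Among single genes, 3207 of the values under other settings kept the call and direction, 35 lost the call, 20 gained one and 15 turned the sign. Those that turned with median centring were COX5B at -0.036, GPD1 at -0.15, GUT1 at -0.18, HHO1 at -0.092, HHT1 at -0.18, HTA1 at -0.20 and LYS5 at -0.25. With quantile normalization GPD1 stood at -0.040, GUT1 at -0.016, HHT1 at -0.021 and LYS5 at -0.28, and without the 50 transcripts GUT1 at -0.035, HHT1 at -0.037, HTA1 at -0.056 and LYS5 at -0.10. The strain difference of HHT1 turned to -0.010 with median centring.

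With the replicate number as a block, 4633 genes were called in YJM975, 3877 higher and 756 lower, and 4926 for the difference. Deviations of same-numbered ethanol and glycerol libraries had correlations of -0.05, -0.09 and 0.01, so the numbers were not taken to pair the samples. Read depth is unknown, so it cannot be said which low genes were limited by counting, and SDs over 3 libraries are themselves imprecise.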
